A study of Mus musculus with 6 samples.

Results

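A set of 10 genes for the entry and activation of fatty acids was followed in mouse hepatocytes given palmitate, a saturated fatty acid, with and without the hepatocyte deletion of STING, the adaptor that signals the presence of cytosolic DNA. The genes were chosen by name for their place in the pathway, and all 10 were among the 57180 genes of the expression table: *Cd36*, *Slc27a2*, *Slc27a4*, *Fabp1*, *Dbi*, *Acsl1*, *Acsl3*, *Acsl4*, *Acsl5* and *Acsm1*. Primary hepatocytes came from the livers of male mice that carried floxed STING alleles alone (STING Loxp) or together with Albumin-Cre (STING LKO), a transgene in which a hepatocyte promoter drives the Cre recombinase. The cells of both groups were cultured with dexamethasone and serum and treated with 0.1 mM palmitate for 24 h, and their RNA was sequenced in 3 libraries per group. No library without palmitate was analysed here, so the comparison is between genotypes under palmitate and not an effect of palmitate. The labels do not say whether replicates came from separate mice or cultures, nor the age of the mice, so p-values measure the spread between these libraries, which may be technical.

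A fatty acid that reaches a hepatocyte passes the plasma membrane, with help from CD36 and the fatty acid transport proteins of the Slc27 family. In the cytosol it is carried by fatty acid-binding proteins, of which FABP1 is the abundant form of liver. It can be oxidised or stored only after an acyl-CoA synthetase has joined it to coenzyme A, a step that also keeps it in the cell. The long-chain enzymes (ACSL) take palmitate as a substrate, whereas ACSM1 prefers medium-chain acids, and acyl-CoA-binding protein, the product of *Dbi*, holds the product. Several of these genes are known targets of PPARα, a nuclear receptor that binds fatty acids and sits on DNA together with RXRα.

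The bases before the start sites of *Fabp1*, *Acsm1* and *Acsl5* are shown here as 3 of the 4 genes called between the groups, and because PPARα-type sites are a known feature of *Fabp1*. Each run is the 250 bases before the RefSeq start, 5′ to 3′ on the gene's strand, from the GRCm38.p6 assembly. Capitals mark AGGTCA, the 6-base element that nuclear receptors read, or AGGNCANAGGNCA, 2 such elements 1 base apart, on either strand.
Fabp1: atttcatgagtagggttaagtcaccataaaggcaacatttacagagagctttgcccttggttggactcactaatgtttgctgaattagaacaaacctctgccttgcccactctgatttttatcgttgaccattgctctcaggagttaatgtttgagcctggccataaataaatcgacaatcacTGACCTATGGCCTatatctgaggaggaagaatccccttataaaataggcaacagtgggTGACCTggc
Acsm1: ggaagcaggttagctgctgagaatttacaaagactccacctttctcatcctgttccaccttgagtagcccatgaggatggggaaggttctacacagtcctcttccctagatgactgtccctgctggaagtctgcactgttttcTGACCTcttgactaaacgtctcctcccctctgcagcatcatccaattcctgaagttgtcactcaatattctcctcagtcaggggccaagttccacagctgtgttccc
Acsl5: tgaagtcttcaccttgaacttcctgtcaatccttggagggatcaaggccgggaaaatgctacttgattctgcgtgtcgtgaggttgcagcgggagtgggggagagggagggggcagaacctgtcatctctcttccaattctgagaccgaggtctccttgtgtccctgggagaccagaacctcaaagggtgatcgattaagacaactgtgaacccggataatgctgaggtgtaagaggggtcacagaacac
They lie at chr6:71199629-71199878 (plus strand, *Fabp1*), chr7:119617562-119617811 (plus, *Acsm1*) and chr19:55253119-55253368 (plus, *Acsl5*). *Fabp1* was the only one of the 10 genes with the 13-letter repeat, at bases -67 to -55 from its start, where it reads TGACCTATGGCCT on the gene's strand. The repeat was present in 0.338% of the 32851 promoters of the same length. The single element was found in 4 of the 10 genes and in 14% of all promoters. *Fabp1* had it at -67 to -62, inside the repeat, and again at -9 to -4, *Acsm1* at -107 to -102, *Slc27a2* at -220 to -215 and *Cd36* at -228 to -223. TATAAA stood before *Fabp1* alone of the 10 genes (12.4% of all promoters) and CCAAT before 6 of them (33.8%), both also searched on either strand and left in lower case. A match of letters is a description of the window and no evidence of binding.

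Counted reads per library ran from 14726983 to 18536985, and no library stood apart. For *Sting1*, the deleted gene, the STING Loxp libraries held 19, 16 and 23 reads and the STING LKO libraries 24, 23 and 15, a log2 fold change of -0.08 ± 0.298 (SE, adjusted p = 0.883 from edgeR). The deletion was thus not visible in these reads. *Sting1* was near the floor, at a mean of 0.181 FPKM, and its interval ran from 0.591 to 1.52 times the STING Loxp level. The study reports from RT-PCR of purified hepatocytes that STING mRNA was present in controls and lost in the knockout. Which exons the deletion removes is not given in the sources used here. Directions below are those of the libraries labelled STING LKO. Of 18 hepatocyte markers, all present, 14 were lower in STING LKO, with summed FPKM of 15306 to 16705 in STING Loxp and 11552 to 11733 in STING LKO. *Alb*, albumin, had a log2 fold change of -0.27, *Hpx*, hemopexin, -1.33 and *Apoa1*, an apolipoprotein, -0.09 (adjusted p = 0.00319, 4.24e-05 and 0.232). Macrophage markers (2 of 14 tested were lower) summed to 67.1 to 84.7 and 53.6 to 63.3 FPKM. The lower ones were *Cd68* and *Mpeg1*, and the other 12 were not called. Log2 fold changes were above 0 for 5 of the 14 and below 0 for 9. Endothelial markers (1 of 14 lower) summed to 35.4 to 38.1 and 32.7 to 35.9. Stellate cell markers (0 of 11 called) summed to 19.4 to 21.7 and 20.5 to 22.1. Of 7 cholangiocyte markers 4 were tested (3 lower, 1 higher), and the 7 summed to 119 to 140 and 61.9 to 72.9. *Epcam*, *Krt7* and *Muc1* were too low to be tested, with mean FPKM of 0.121, 0.0234 and 0.0893. The sum is thus no measure of the amount of cholangiocytes. Over all genes tested 11.6% were lower and 11.5% higher, the shares beside which the marker counts of each cell type stand. Single genes carried much of some sums, with mean FPKM of 37.5 and 21.1 for *Cd68* of macrophages and 111 and 55.8 for *Cldn4* of cholangiocytes. The higher cholangiocyte marker was *Krt19* (log2 fold change 0.82, adjusted p = 0.0479 from edgeR). All 8 lymphocyte markers had 0 counts, and of 6 adipocyte markers only *Cidec*, which hepatocytes also express, was tested (log2 fold change 0.62, adjusted p = 0.0303). In bulk RNA, fewer cells of a type and less RNA per cell cannot be told apart, and the part of these markers in the results below was not tested.

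The clearest difference among the 10 genes was in *Fabp1*, whose level in STING LKO was 1.97 times that in STING Loxp. *Dbi* and *Acsm1* were also higher in STING LKO and *Acsl5*, which had the highest deposited FPKM of the 10 (a rank that depends on the gene length used), was slightly lower. The other 6 genes, among them all 3 membrane proteins, did not pass the test. Counts were scaled by edgeR's TMM factors to CPM, the number of a gene's reads relative to the size of its library, and its quasi-likelihood test compared the groups. A gene was called where the p adjusted over the 14151 tested genes was under 0.05. By this rule 3 of the 10 genes were higher (11.5% of all genes tested), 1 was lower (11.6% of all genes) and 6 did not pass (23.1% of all genes passed in either direction). The median log2 fold change of the 10 genes was 0.087, beside -0.0021 over all genes tested. In CPM the groups did not overlap for the 4 called genes, or 4 of 10, where 40.7% of all genes had such groups. None of the 10 met the study's own rule, which also asks for an absolute log2 fold change above 1 and an average above 1 FPKM in one group, and which 2.05% of all genes met. For single genes the exact two-sided permutation test over 3 libraries against 3 gave p = 0.1 for each of the 4 called genes, the smallest p it can give.

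**Figure D1:**
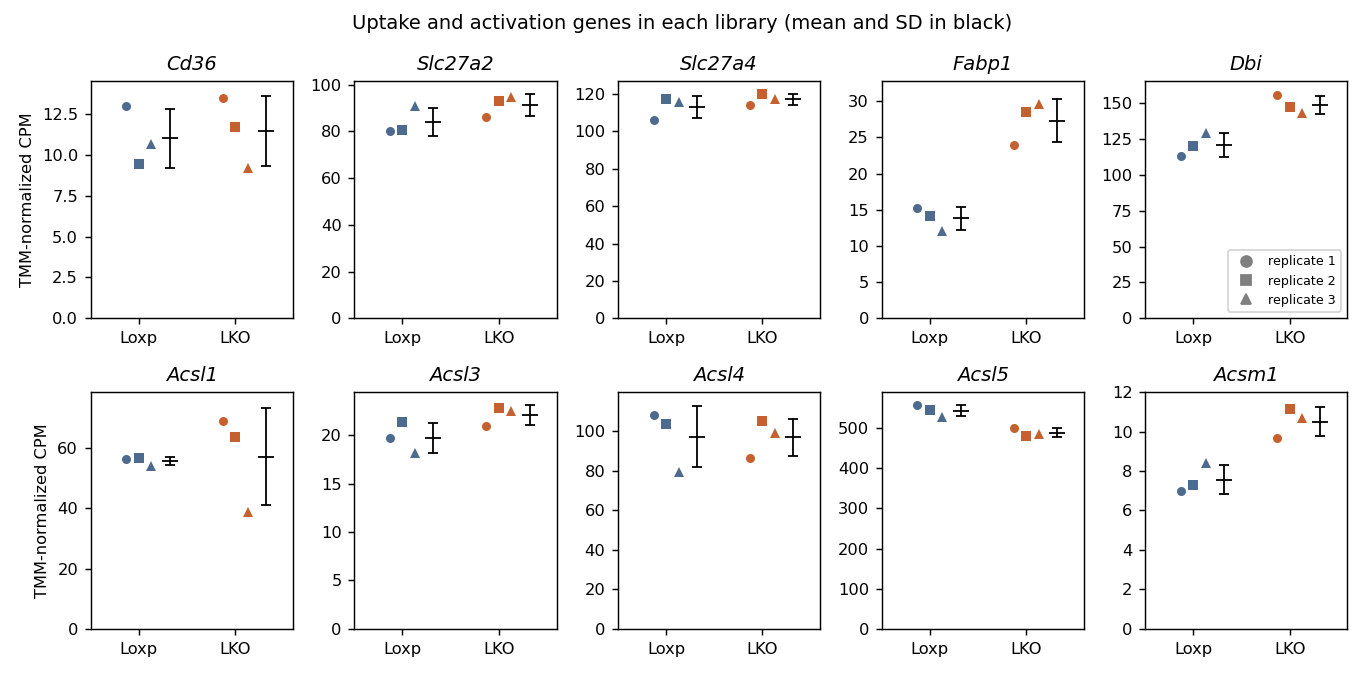
TMM-normalized CPM of each of the 10 genes (vertical axes from 0, one scale per gene) in the 3 STING Loxp (blue) and 3 STING LKO (orange) libraries, with the group mean and SD in black. *Fabp1*, *Dbi* and *Acsm1* lie higher in every STING LKO library, *Acsl5* lies lower, and *Acsl1* spreads from 38.7 to 69.0 within STING LKO.

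At the membrane, none of the 3 genes passed the test. *Cd36*, the scavenger receptor that binds long-chain fatty acids, had 13, 9.44 and 10.7 CPM in STING Loxp replicates 1 to 3 and 13.5, 11.7 and 9.21 in STING LKO replicates 1 to 3. Its groups overlapped throughout, with a log2 fold change of 0.05 (95% confidence interval -0.34 to 0.45, adjusted p = 0.860 from edgeR), so levels in STING LKO between 0.789 and 1.36 times those in STING Loxp were not distinguished. *Cd36* is also expressed by macrophages and endothelial cells, whose summed markers are given above, and its part from those cells was not tested. *Slc27a2*, the FATP2 transporter, which also activates very long-chain acids, had 80.3, 80.6 and 91.0 CPM in STING Loxp against 86.2, 93.2 and 94.6 in STING LKO. The highest STING Loxp library lay above the lowest STING LKO library, and the log2 fold change was 0.12 (interval -0.05 to 0.29, adjusted p = 0.286 from edgeR). *Slc27a4*, the FATP4 transporter, had 106, 117 and 116 CPM in STING Loxp against 114, 120 and 118 in STING LKO. It had the narrowest interval of the 3 membrane genes, from -0.09 to 0.19 around a log2 fold change of 0.05 (adjusted p = 0.592 from edgeR).

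Both binding protein genes were higher in STING LKO. *Fabp1* (ENSMUSG00000054422, chr6:71176811-71182007 in the deposited table, GRCm39 per the submitters' processing notes) was counted 242, 202 and 184 times in the STING Loxp libraries and 375, 528 and 507 times in the STING LKO libraries. In CPM these are 15.3, 14.1 and 12.1 against 23.9, 28.5 and 29.6. Every STING LKO library lay above every STING Loxp library, and the gap between the groups was wider than the spread within either. The log2 fold change was 0.98 ± 0.121 (SE, interval 0.70 to 1.26), with an adjusted p of 9.68e-04 from edgeR's quasi-likelihood test, and its point estimate stood just under the study's limit of 1. In the same libraries 14 of 18 hepatocyte markers were lower, where 11.6% of all genes were. A link between these markers and *Fabp1* was not tested. *Dbi* (ENSMUSG00000026385, chr1:120041010-120048808) had 113, 120 and 129 CPM in STING Loxp against 156, 147 and 143 in STING LKO. All 3 STING LKO libraries were above the highest STING Loxp library. The log2 fold change of *Dbi* was 0.30 ± 0.0680 (SE, adjusted p = 0.0158 from edgeR), a rise to 1.23 times the STING Loxp level, and the call was lost without STING LKO replicate 1 or 2 (adjusted p up to 0.0588).

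Of the 4 long-chain acyl-CoA synthetases, *Acsl5* alone passed the test, and its change was small. *Acsl5* (ENSMUSG00000024981, chr19:55240370-55286152), an enzyme of mitochondria and endoplasmic reticulum that is abundant in liver and gut, had 558, 546 and 529 CPM in STING Loxp against 501, 481 and 485 in STING LKO. The groups did not overlap, although the lowest STING Loxp library was close to the highest STING LKO library. The log2 fold change was -0.15 ± 0.0467 (SE, interval -0.26 to -0.05), with an adjusted p of 0.0459 from edgeR. The call did not survive in 11 of 14 other ways of fitting, among them the removal of any single library, with an adjusted p of up to 0.152. *Acsl5* overlaps *Zdhhc6* over 26430 bases in the table, a gene with a mean of 1044 counts and a log2 fold change of 0.24 (adjusted p = 0.0933). The strand setting of the counting is not given in the sources used here, so reads of the overlap could not be assigned to one gene.

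The other 3 long-chain synthetases did not pass the test. *Acsl1*, known as the main synthetase of liver and as a PPARα target, was below *Acsl5* in every library here. It had 56.4, 56.7 and 54.1 CPM in STING Loxp but 69.0, 63.5 and 38.7 in STING LKO. STING LKO replicates 1 and 2 were above all STING Loxp libraries and replicate 3 was below all of them, which left a log2 fold change of 0.03 (interval -0.39 to 0.45, adjusted p = 0.919 from edgeR). Without STING LKO replicate 3 the log2 fold change of *Acsl1* was 0.25, with an adjusted p of 0.0668 from edgeR, and without replicate 1 it was -0.12. *Acsl4*, which prefers arachidonic acid and other polyunsaturated acids, had 108, 104 and 79.4 CPM in STING Loxp against 86.4, 105 and 98.9 in STING LKO. Its group means were nearly equal, with an interval of the log2 fold change from -0.28 to 0.28 (adjusted p = 0.987 from edgeR). *Acsl3*, a synthetase of the endoplasmic reticulum and lipid droplets, had 19.7, 21.3 and 18.2 CPM in STING Loxp against 20.9, 22.8 and 22.5 in STING LKO. These groups overlapped in 1 pair of libraries, and the log2 fold change was 0.16 (interval -0.05 to 0.37, adjusted p = 0.250 from edgeR). *Utp14b*, which overlaps *Acsl3* over 13475 bases and had a mean of 179 counts, had a log2 fold change of 1.08 (adjusted p = 9.26e-04 from edgeR). Its reads and those of *Acsl3* could not be separated either.

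*Acsm1* (ENSMUSG00000033533, chr7:119206249-119261738), a mitochondrial medium-chain synthetase that does not take palmitate as its usual substrate, was higher in STING LKO. It had 7.0, 7.27 and 8.43 CPM in STING Loxp against 9.69, 11.1 and 10.7 in STING LKO, from 104 to 206 counts per library. The groups did not overlap, and the log2 fold change was 0.47 ± 0.127 (SE, adjusted p = 0.0294 from edgeR). This call was lost in 5 of 14 other ways of fitting, with an adjusted p of up to 0.105, namely with DESeq2 and without STING Loxp replicate 1, STING Loxp replicate 2, STING LKO replicate 2 or STING LKO replicate 3. A long noncoding RNA, *Gm39079*, overlaps *Acsm1* over 35789 bases and had a log2 fold change of -0.29 (adjusted p = 0.659 from edgeR).

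**Figure D2:**
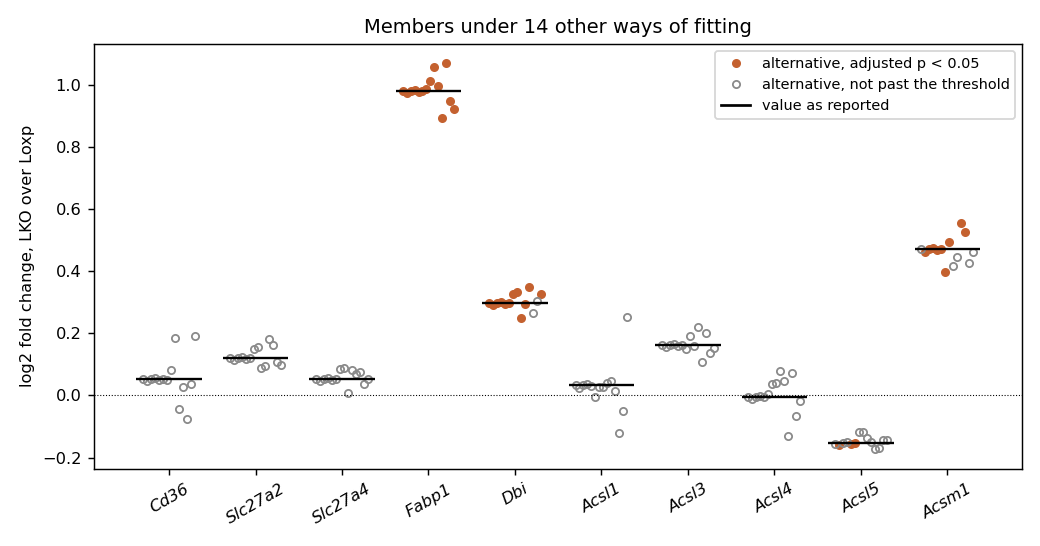
Log2 fold change (vertical axis) of each of the 10 genes under 14 other ways of fitting (points, filled where the adjusted p was under 0.05) and as reported (black line). *Fabp1* is filled in all 14, between 0.89 and 1.07, *Acsl5* in 3, and *Cd36*, *Acsl1* and *Acsl4* lie on both sides of 0.

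Per length of gene the 10 genes spanned a wide range. FPKM values, which divide each count by the gene's length and the library's counted reads, put *Acsl5* first with a mean of 91.7, above 96.1% of all genes tested. *Dbi* (45.7), *Fabp1* (37.3), *Slc27a4* (24.9), *Slc27a2* (20.6) and *Acsl4* (15.2) followed, then *Acsl1* (3.98), *Acsm1* (3.69), *Acsl3* (3.23) and *Cd36* (1.35, above 28.0%). *Fabp1* had 27.5, 24.8 and 21.7 FPKM in STING Loxp, overlapping the 23.0, 24.7 and 24.8 of *Slc27a4*. In STING LKO it had 43.7, 51.5 and 54.6 FPKM, overlapping the 53.3, 49.9 and 49.6 of *Dbi*. *Fabp1* thus stood beside the transporter in one group and beside *Dbi* in the other. *Acsl1*, *Acsm1* and *Acsl3* had close means. In STING Loxp *Acsl1* lay above *Acsm1* and *Acsl3* in every library, and in STING LKO replicate 3, at 2.80 FPKM, it lay below both. These levels depend on the length behind the FPKM, which for *Fabp1* was 553 bases, the length of its longest coding transcript in GENCODE vM21. For *Dbi* it was 2949 bases against 569, for *Acsl1* 14149 against 3897 and for *Cd36* 8348 against 3399. With the longest coding transcript in place of these lengths, an alternative chosen after the lengths had been seen, *Dbi* stood above *Acsl5*, at 209 FPKM in STING Loxp and 264 in STING LKO, beside 126 and 117 for *Acsl5*. *Acsl1* then stood at 14.1 FPKM in STING Loxp, apart from *Acsm1* (3.58) and *Acsl3* (4.92). The fold changes between groups do not depend on the length.

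The 4 long-chain synthetases together were slightly less abundant in STING LKO, and *Acsl5* made up most of them in both groups. Their summed FPKM was 123, 117 and 112 in STING Loxp against 112, 110 and 110 in STING LKO. The means were 117 ± 5.43 and 111 ± 1.09 (SD, n = 3 per group, exact permutation p = 0.1), and the lowest STING Loxp library, at 112.06, all but touched the highest STING LKO library, at 112.05. *Acsl5* held 80.5%, 80.5% and 83.1% of the sum in STING Loxp against 80.5%, 77.8% and 79.9% in STING LKO. The groups touched at 80.5%, and the mean share was 81.4% ± 1.52 against 79.4% ± 1.42 (SD, n = 3 per group, exact permutation p = 0.1). *Acsl3* held 2.47%, 2.74% and 2.49% in STING Loxp against 2.92%, 3.21% and 3.22% in STING LKO (exact permutation p = 0.1). These groups did not overlap, but the gap was narrower than the spread within either. *Acsl3* itself did not pass the test, and its reads could not be separated from those of *Utp14b*. *Acsl4* made up 12.7% ± 1.51 and 13.8% ± 1.44 and *Acsl1* 3.31% ± 0.0730 and 3.67% ± 0.996 (SD, n = 3 per group), both with overlapping groups. With the coding transcript lengths *Acsl1* made up 8.62% and 9.47% of the sum in STING Loxp and STING LKO and *Acsl5* 77.3% and 75%, and the groups then overlapped for the sum and for *Acsl5*.

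**Figure D3:**
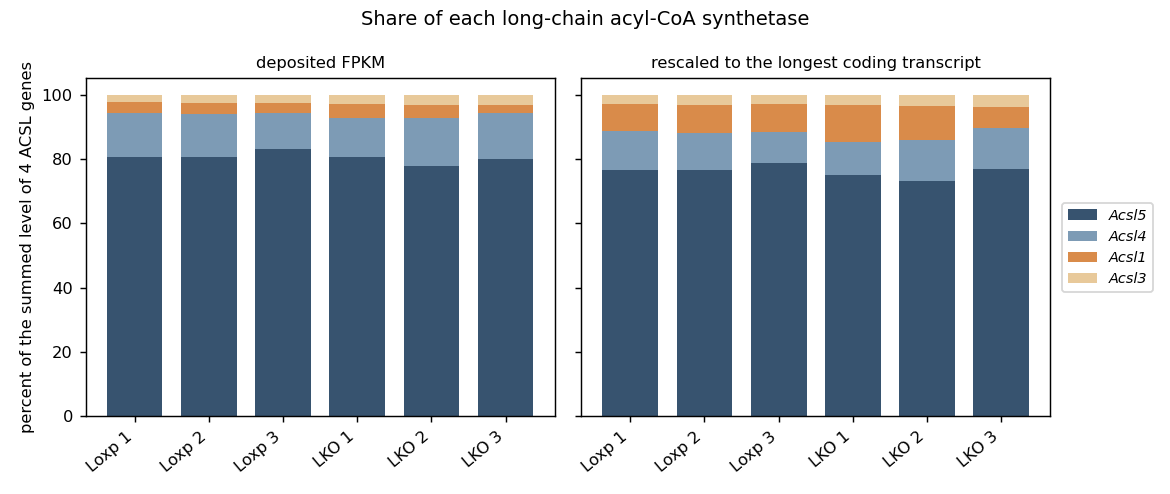
Percent of the summed level of the 4 long-chain acyl-CoA synthetase genes (vertical axis, from 0) held by each gene in each of the 6 libraries, from the deposited FPKM (left) and after rescaling to the longest coding transcript (right). *Acsl5* holds between 77.8% and 83.1% on the left and between 73.0% and 78.8% on the right.

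Of 46 further genes of uptake, binding, activation and thioester hydrolysis, 35 passed the filter on low counts, 7 were higher in STING LKO and 8 lower. Over all genes tested, 11.5% were higher and 11.6% lower, the shares beside which these counts and those of the lists below stand. The median log2 fold change over the 35 was -0.06. Among the binding proteins, *Fabp2* and *Fabp5* rose along with *Fabp1*. *Fabp5*, the epidermal form, had 16.0, 13 and 20.0 CPM in STING Loxp against 45.3, 44.2 and 41.1 in STING LKO (log2 fold change 1.41 ± 0.140, SE, adjusted p = 3.63e-04 from edgeR), and it was the one gene of the 46 that met the study's rule. *Fabp2*, the intestinal form, had 5.43, 4.2 and 4.54 CPM against 10.3, 10.3 and 7.87 (log2 fold change 1.0 ± 0.167, SE, adjusted p = 0.00392 from edgeR). The groups did not overlap for either gene. Macrophages also express *Fabp5*. Their summed markers are given above, and the part of those cells in the level of *Fabp5* was not tested. *Fabp4*, the form of adipocytes, macrophages and endothelial cells, named here after its values were seen, had 35.5, 34.1 and 33.0 CPM against 35.9, 33.7 and 36.2, with overlapping groups and an adjusted p of 0.70. Summed over *Fabp1*, *Fabp2*, *Fabp4* and *Fabp5*, FPKM was 43.8, 38.5 and 37.4 in STING Loxp against 72.4, 79.2 and 80.1 in STING LKO. Most of this FPKM came from *Fabp1*, a share that depends on the gene lengths used. In CPM, which leaves length out, mean *Fabp1* was 13.8 in STING Loxp and 27.3 in STING LKO. Mean *Fabp4* was 34.2 and 35.3 in the same order, and mean *Fabp5* 16.4 and 43.5. *Acbd4*, an acyl-CoA-binding protein related to the product of *Dbi*, was lower (log2 fold change -0.81, adjusted p = 0.00366), and *Scp2*, sterol carrier protein and the most abundant of this list, had -0.18 (adjusted p = 0.0791).

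**Figure D4:**
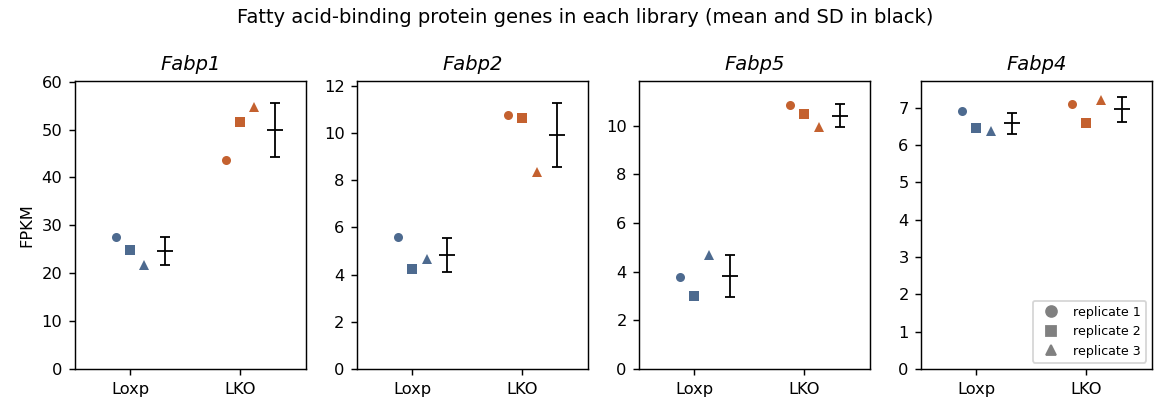
FPKM (vertical axes from 0, one scale per gene) of 4 fatty acid-binding protein genes in each library, STING Loxp in blue and STING LKO in orange, with the group mean and SD in black. *Fabp1*, *Fabp2* and *Fabp5* are higher in all 3 STING LKO libraries, and the groups overlap for *Fabp4*.

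Among 7 tested genes of uptake outside the 10, 1 was higher and 2 lower, with 11.5% and 11.6% of all genes called in these directions. *Slc27a5*, the FATP5 transporter of liver, which also joins coenzyme A to bile acids, had 151, 150 and 170 CPM in STING Loxp against 108, 115 and 113 in STING LKO (log2 fold change -0.49, adjusted p = 0.00168 from edgeR). This differed in direction from *Slc27a2* and *Slc27a4*, whose estimates were above 0 without passing the test, a difference between genes that was not tested. *Slc27a1* was also lower (-0.70, adjusted p = 0.0248), and *Slc27a3* was higher (1.90, adjusted p = 0.0137) from a level of only 6 to 10 counts per STING Loxp library. FPKM summed over the 5 Slc27a genes was 81.5, 82.0 and 90.7 in STING Loxp against 74.5, 78.4 and 80.0 in STING LKO. *Got2*, the mitochondrial aspartate aminotransferase that was also described as a membrane fatty acid-binding protein, was the most abundant of the list and had a log2 fold change of 0.11 (adjusted p = 0.190).

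Of 7 other acyl-CoA synthetases tested, 3 were lower and 1 higher (11.6% and 11.5% of all genes). *Acsm5* (-0.96, adjusted p = 0.0136) and *Acsm3* (-0.73, adjusted p = 0.0192), medium-chain relatives of *Acsm1*, were lower on the log2 scale where *Acsm1* was higher. Both were at low levels, with means of 0.565 and 0.736 FPKM. The calls of *Acsm1* and *Acsm3* were lost in 5 and 3 of 14 other fits. *Acss2*, which activates acetate, was lower as well (-0.38, adjusted p = 0.00692). *Aacs*, which activates acetoacetate, was higher (0.58, adjusted p = 0.00180) and had the highest FPKM of the list. The thioesterases, which split acyl-CoA back to the free acid, had 3 higher and 2 lower of 12 tested, against 11.5% and 11.6% of all genes. *Acot2*, of mitochondria, and *Acot7*, of the cytosol, were higher (0.51 and 0.38, adjusted p = 0.00792 and 0.0211), as was *Acot1* (0.99, adjusted p = 0.0238), named outside the rule and a near-identical copy of *Acot2*, so that reads may be split between them. *Acot11* had the largest change of the 35 genes, to -2.14 (adjusted p = 1.38e-04). Its level was low, at a mean of 0.553 FPKM and 32, 29 and 34 counts in the STING LKO libraries. *Acot12* had -0.48 (adjusted p = 0.00441), and *Acot13*, the most abundant, had -0.11 (adjusted p = 0.250).

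**Figure D5:**
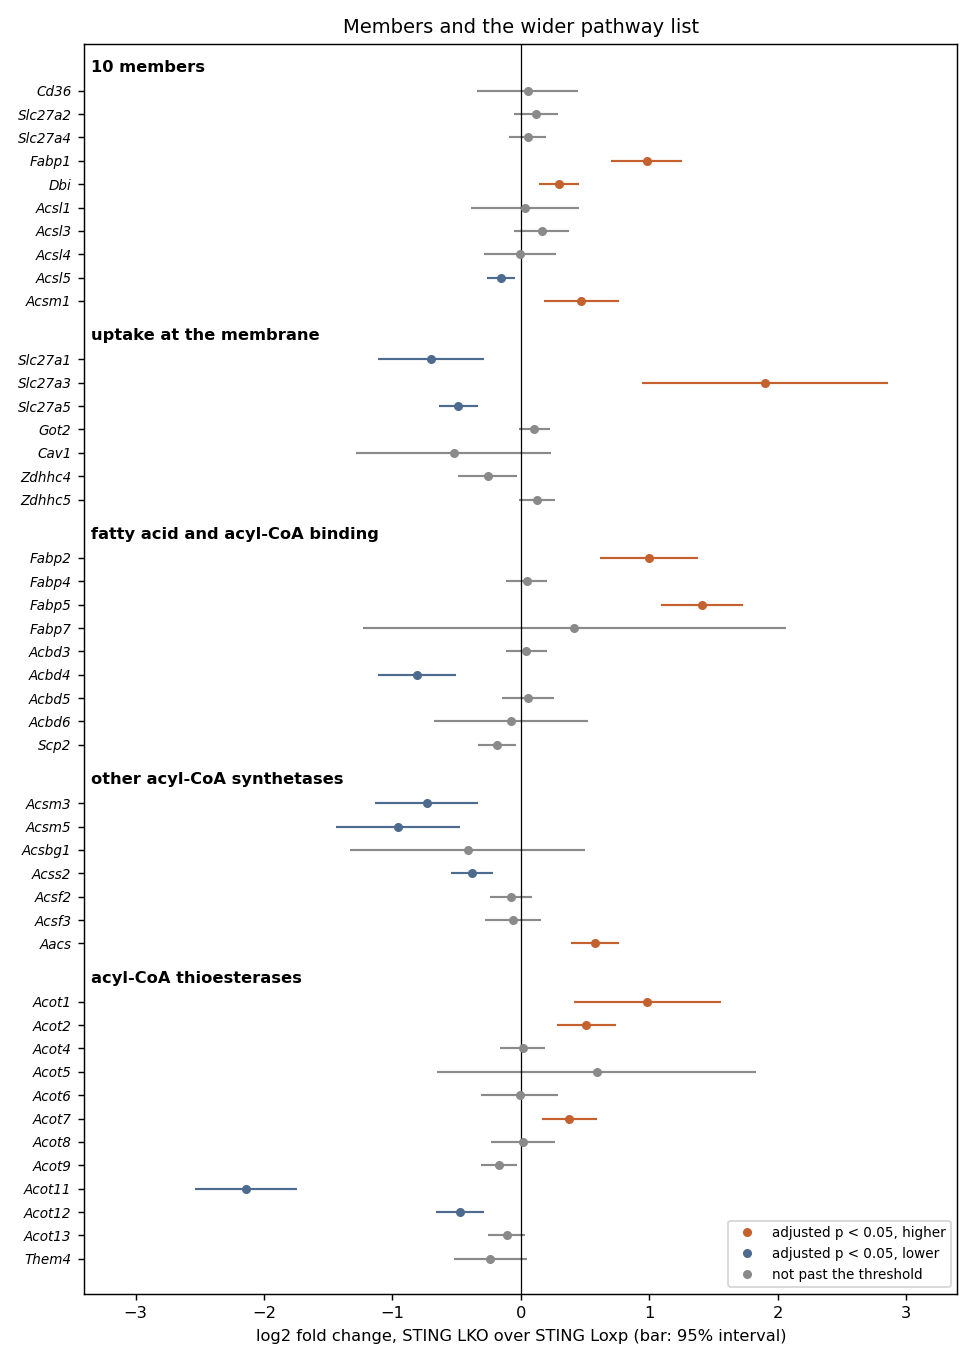
Log2 fold change of STING LKO over STING Loxp (horizontal axis, bars for the 95% confidence interval) of the 10 genes and of the 35 tested genes of the wider lists, coloured where the adjusted p was under 0.05. Higher and lower genes stand side by side within each list, and *Fabp1* has the largest change of the 10.

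Regulators of lipid genes in liver were measured from a further list. Of 10 tested, 3 were lower by edgeR's quasi-likelihood test, where 11.6% of all genes were. *Hnf4a*, which maintains hepatocyte gene expression, had a log2 fold change of -0.59 (adjusted p = 3.38e-04), *Nr1i2*, the xenobiotic receptor PXR, -1.37 (adjusted p = 4.97e-04) and *Ppargc1a*, a coactivator, -1.21 (adjusted p = 0.0300, from a mean of 0.270 FPKM). *Ppara* itself, named after its values were seen, had -0.21 (adjusted p = 0.171), and *Nfe2l2*, the most abundant of the list, had -0.18 (adjusted p = 0.135). Of 17 known PPARα targets outside the 10 genes, 3 were higher and 6 lower, beside 11.5% and 11.6% of all genes. Their median was -0.10. *Cyp4a14*, a fatty acid hydroxylase, was higher (0.77, adjusted p = 4.89e-05), as was *Plin2*, a lipid droplet coat protein and the most abundant of them (0.21, adjusted p = 0.0182). *Fgf21*, a secreted hormone of liver (-2.07, adjusted p = 3.11e-04), and *Creb3l3* (-0.59, adjusted p = 8.44e-04) were lower. *Fabp1*, with the repeat shown above, was on the side of *Cyp4a14*, while *Acsl1* and *Cd36* were called in neither direction.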

How the data were processed

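The authors deposited 1 table of read counts without normalization and of FPKM for 57180 genes in 6 libraries, 12 columns of values, all used. The submitters' processing notes name fastp, HISAT2, StringTie, edgeR and GRCm39 without versions. The counting tool and strand setting are not given in the sources used here. The deposited FPKM divides each count by 1 length per gene and the library's total of counted reads, which held within 0.00873% on 13088 genes.

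Tests were run in edgeR 4.0.16 under R 4.3.3 (filterByExpr, minimum count 10, TMM, two-sided quasi-likelihood test, Benjamini-Hochberg over 14151 genes), which was tested on simulated data. Groups came from the sample labels. Replicates differed by more than counting noise (chi-square per degree of freedom 7.58 to 16.1). Exact permutation tests were used for single values. The alternatives were DESeq2 1.42.0, upper-quartile factors, the likelihood ratio test, other count filters, the replicate block, limma 3.58.1 on log2 FPKM with 1 or 0.1 added, fits without each library in turn, CPM or coding transcript lengths for the summed level, and the study's rule. Figures were drawn with matplotlib 3.10.9.

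Genes and lists were chosen with earlier results of these data known. The genes named are the 10, *Sting1*, of each further list the called genes (at most the 4 with the smallest adjusted p) and the one with the highest FPKM, and of each cell type the 3 markers with the highest FPKM. The log2 fold changes of markers named by that rule and not given elsewhere follow. Those of macrophages were *Cd68* (-0.87), *Lyz2* (0.18) and *Mpeg1* (-0.69), and those of endothelium *Cdh5* (0.0051), *Lyve1* (-0.20) and *Eng* (-0.06). Those of stellate cells were *Ecm1* (-0.13), *Sparc* (-0.04) and *Dcn* (0.16). Those of cholangiocytes were *Cldn4* (-1.03), *Sox9* (-0.87) and *Spp1* (-2.04), while *Krt19*, named outside the rule, was higher (0.82). Promoter sequences were read from RefSeq (GRCm38.p6) for 10 of 10 genes and set beside no coordinate of the table. Some results that these rules would name are not reported here.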

Additional observations from a re-analysis of the deposited data

How the results depend on the processing

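*Fabp1* passed the threshold in the same direction under all 14 other fits, with adjusted p values of up to 0.00616. The number of the 10 genes called higher, 3, was 0 by the study's rule and 1 to 3 with a library left out, with 1 without STING LKO replicate 2. The number called lower, 1, was 0 with DESeq2, the likelihood ratio test, every gene with at least 1 count, both limma fits, the study's rule and every library left out (0 to 0). The difference in summed ACSL level, -6.55 FPKM, was -51.6 in CPM, a change of unit, -8.15 with coding transcript lengths, and -9.20 to -3.78 with a library left out. *Cd36* changed sign without STING Loxp replicate 2 (-0.05) and STING LKO replicate 1 (-0.075), *Acsl1* without STING LKO replicate 1 (-0.12) and replicate 2 (-0.05), and *Acsl4* with limma (0.037 and 0.039 with 1 and 0.1 added) and without STING Loxp replicate 1 (0.079), STING Loxp replicate 2 (0.05) and STING LKO replicate 1 (0.074). Over the 6 libraries left out, *Cd36* ran from -0.075 to 0.19, *Acsl1* from -0.12 to 0.25 and *Acsl4* from -0.13 to 0.079. These causes were not tested.

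With the replicate number as a block, *Acsl1* was at -0.0040 and *Acsl4* at 0.0035, 3 of the 10 genes were called higher and 1 lower, and 3235 genes were called in place of 3274. Libraries with the same number correlated in their deviations by 0.146, 0.0719 and 0.0339, so the numbers were not taken as pairs. Over 41 named genes, 503 of 573 alternatives kept direction and side of the threshold, 58 lost the call, 1 gained it and 11 reversed. Among the further genes, calls were lost with single libraries left out for *Slc27a1* (STING Loxp replicates 2 and 3, STING LKO replicates 1 and 2, adjusted p over its alternatives up to 0.0836), *Acsm3* (STING Loxp 1, STING LKO 2 and 3, up to 0.0756), *Acot1* (STING Loxp 2, STING LKO 2 and 3, up to 0.0785), *Acot7* (STING LKO 1 and 2, up to 0.0733), *Ppargc1a* (STING Loxp 1 and 3, STING LKO 1 and 2, up to 0.0981) and *Plin2* (STING Loxp 2, STING LKO 2 and 3, up to 0.0669). Calls over all genes ran from 1974, without STING LKO replicate 2, to 3267, with 2528 of 25004 for every gene with at least 1 count. Limma's median over all genes was 0.02 to 0.03. DESeq2 gave no adjusted p for 8 genes. With 3 libraries per group, changes within the intervals of *Cd36*, *Acsl1* and *Acsl4* could not be seen.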
